A study of Mus musculus with 6 samples.

Results

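The cholangiocyte and ductular genes described here were 8 genes of the bile duct epithelium, Krt7, Krt19, Epcam, Sox9, Bicc1, Tspan8, Cftr and Pkhd1, taken by gene name from a table of 54532 genes. All 8 were found in the table, and 7 were among the 14873 genes abundant enough to be tested. RNA was sequenced from primary mouse hepatocytes of 2 genotypes with 3 libraries each. The XCON group carried the floxed, undeleted Xbp1 gene (Xbp1FL/FL), and the XCKO group carried the hepatocyte deletion Xbp1ΔHep. All mice had the C57BL/6 background, were 32 to 34 weeks old and had received a high-fat diet (HFD) for 26 weeks, so that no group on a normal diet was part of the comparison. The labels do not name the Cre driver or the mouse behind each library, so the p-values below measure the spread between these libraries.

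Bile ducts are lined by cholangiocytes, epithelial cells that modify bile by secreting fluid and bicarbonate and that carry a primary cilium on the side facing the duct. Cholangiocytes and hepatocytes arise from the same embryonic precursor, and SOX9 marks the biliary branch. In injured or fatty liver, ductular cells can expand in what is called a ductular reaction, and some hepatocytes can switch on part of the biliary programme, SOX9 among the first genes. A hepatocyte preparation may also carry a few duct cells, and in bulk RNA fewer cells of a type and less RNA per cell cannot be told apart.

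The library totals ran from 23919355 to 27240079 counted reads. Xbp1 itself, the label check, was at 171, 294 and 319 CPM (read counts per 1000000 reads, with library totals scaled by trimmed means) in XCON 1 to 3 and at 59.0, 39.3 and 67.4 CPM in XCKO 1 to 3. It was lower in every XCKO library, with a log2 fold change of -2.24 ± 0.29 (SE, n = 3 and 3; edgeR quasi-likelihood test, adjusted p = 0.0084). The hepatocyte gene Alb, which encodes the plasma protein albumin, was at 45346 to 61832 CPM in XCON and 57190 to 85281 CPM in XCKO. A high Alb level does not measure how free the preparations were of other cells, whose markers are given below. Mitochondrial genes took 22.8% of the reads of XCON 1 and 8.99% to 13.1% of those of the other libraries, and the part of this in the values of XCON 1 was not tested.

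RefSeq (GRCm38.p6) gave the promoter for 5 of the 8 genes. The 250 bases before the RefSeq start are shown for 3 of them, because these 3 behaved differently in the data described next: Pkhd1 was the most even member across the XCON libraries, Tspan8 had the largest fitted difference between the genotypes, and Epcam had groups that overlapped through 1 control library. The Pkhd1 stretch lies on the minus strand at chr1:20618058-20618307, the Tspan8 stretch on the plus strand at chr10:115817034-115817283 and the Epcam stretch on the plus strand at chr17:87635729-87635978. Each is written 5′ to 3′ on the strand of the gene, with capitals for a matched motif.
Pkhd1: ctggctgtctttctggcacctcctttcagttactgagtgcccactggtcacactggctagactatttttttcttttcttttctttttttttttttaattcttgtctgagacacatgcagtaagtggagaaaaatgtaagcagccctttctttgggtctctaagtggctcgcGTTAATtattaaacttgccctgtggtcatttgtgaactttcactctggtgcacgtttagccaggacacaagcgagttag
Tspan8: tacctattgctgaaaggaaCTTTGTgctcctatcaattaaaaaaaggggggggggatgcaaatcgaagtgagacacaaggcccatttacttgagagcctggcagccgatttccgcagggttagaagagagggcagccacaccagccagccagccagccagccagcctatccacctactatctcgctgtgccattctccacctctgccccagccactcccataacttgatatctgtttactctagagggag
Epcam: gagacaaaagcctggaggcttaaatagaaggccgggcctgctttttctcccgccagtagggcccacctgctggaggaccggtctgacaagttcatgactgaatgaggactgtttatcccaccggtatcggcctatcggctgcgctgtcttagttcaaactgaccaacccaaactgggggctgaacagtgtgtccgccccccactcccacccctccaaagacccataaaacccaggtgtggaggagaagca
The capitals in Pkhd1 mark GTTAAT, the core letters bound by hepatocyte nuclear factor 1, a factor of duct and kidney epithelium, 79 bases before the RefSeq start. It was present on either strand in 6.43% of 32851 mouse promoters of this length. The capitals in Tspan8 mark ACAAAG, letters bound by SOX proteins, read on the opposite strand 231 bases before the RefSeq start, which lies 452 bases inside the span that the deposited table gives for the gene. That motif was present in 16.5% of promoters. The unfolded protein response element TGACGTGG, which XBP1 can bind, was present in 0.563% of promoters and in none of the 5, and the endoplasmic reticulum stress element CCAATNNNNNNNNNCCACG was present in 0.113% and in none of the 5. No motif overlapped another. The Epcam stretch held none of the 4.

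Of the 7 tested members, Bicc1 and Tspan8 fell in XCKO and none rose (edgeR quasi-likelihood test, adjusted p under 0.05), while the other 5 did not pass the test. Unadjusted p was under 0.05 for 6 of the 7, all of them lower in XCKO. Such a p was found for 4421 of the 14873 tested genes, in either direction. Over all tested genes 4.05% were called lower and 5.21% higher. All 7 fitted differences were below 0, where 53.5% of all tested genes were. Their median log2 fold change was -1.83, against -0.05 over all tested genes. Every XCKO library lay below every XCON library for 4 of the 7, namely Krt7, Bicc1, Tspan8 and Pkhd1, where 18.1% of all tested genes showed this order. Krt7 passed the low-count filter through XCON only, reaching the filter's level of 0.377 CPM in 3 XCON libraries and in 0 XCKO libraries, and Tspan8 reached it in 3 and 2. A gene that passes that way had to differ, so the count over tested members is a description. The authors' deposited table, which has its own test, gave 4 of the 8 members as lower, Epcam, Sox9, Bicc1 and Tspan8, where 4.66% of its genes with an adjusted p were lower.

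**Figure D1:**
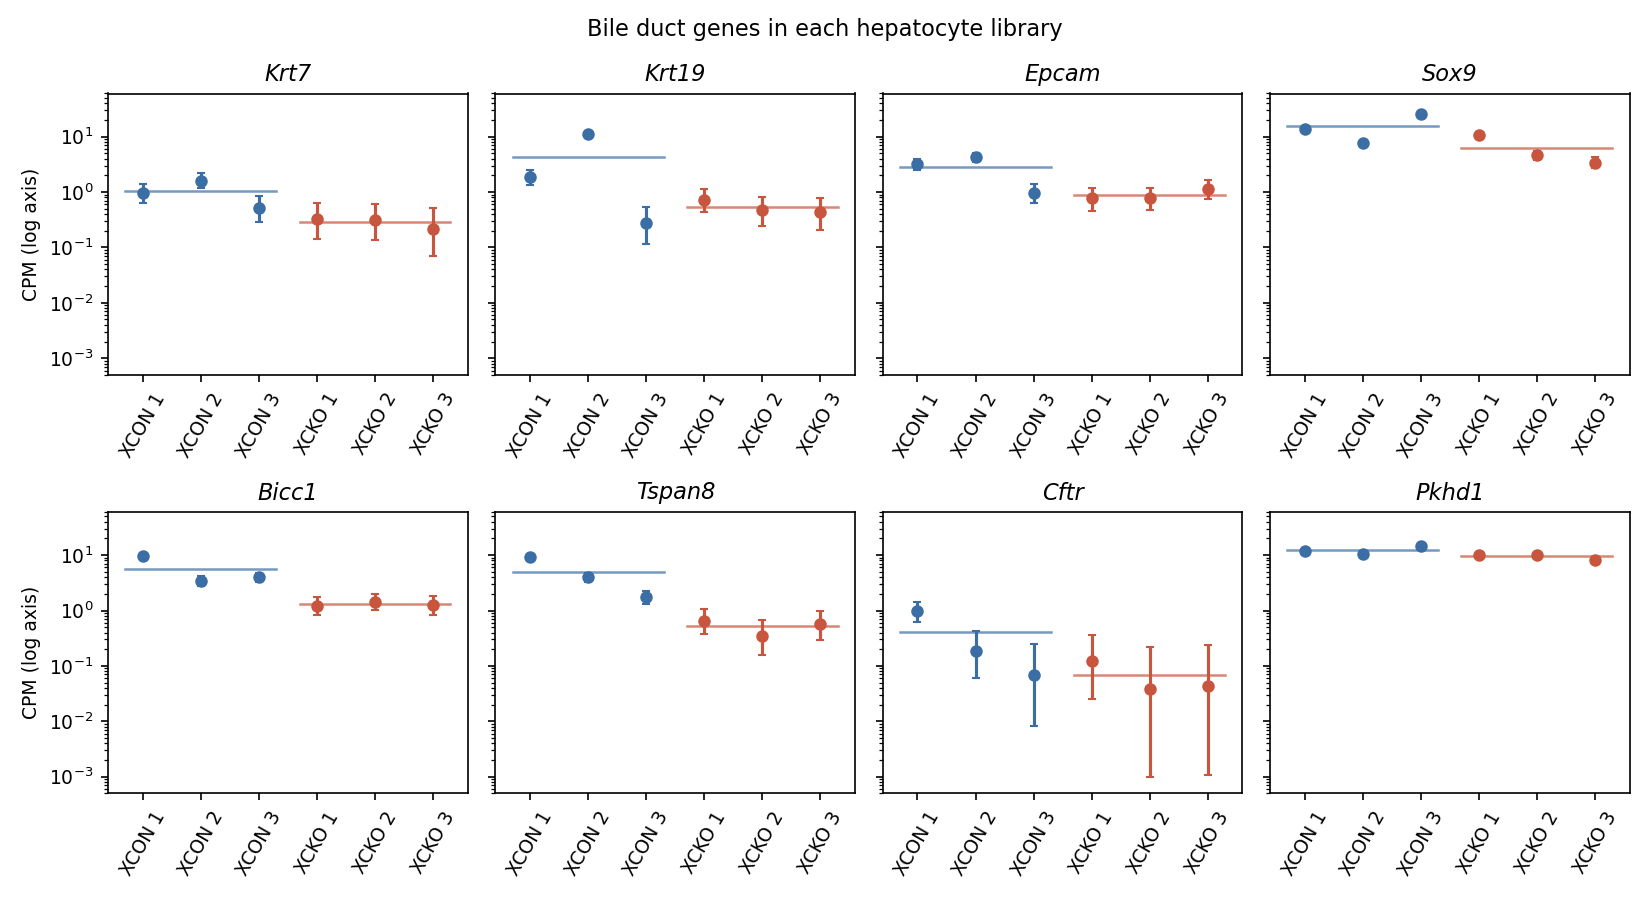
Level of each of the 8 genes in each library, in CPM on a log axis; bars are exact 95% Poisson intervals (counting error only) and lines are group means. XCON points are blue and XCKO points red. Pkhd1 stays between 8.08 and 14.4 CPM in all 6 libraries, whereas Krt19 ranges from 0.270 to 10.9 CPM within XCON alone.

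Krt7 and Krt19 encode the keratins that set duct epithelium apart from hepatocytes, whose own pair is KRT8 and KRT18. Krt7 (ENSMUSG00000023039, GRCm38 chr15:101411043-101430313, plus strand) was at 0.962, 1.61 and 0.507 CPM in XCON 1 to 3, which were 25, 44 and 15 reads. In XCKO 1 to 3 it was at 0.324, 0.311 and 0.216 CPM, from 8, 8 and 5 reads. The groups did not overlap, but the exact 95% Poisson interval of XCON 3, 0.284 to 0.836 CPM, reached the values of XCKO 1 and 2. The log2 fold change was -1.83 ± 0.56 (SE, n = 3 and 3), which did not pass the test (edgeR, adjusted p = 0.072).

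Krt19 (ENSMUSG00000020911, chr11:100140810-100148665, minus strand) was at 1.85, 10.9 and 0.270 CPM in XCON 1 to 3. In XCKO 1 to 3 it was at 0.729, 0.466 and 0.432 CPM. One control library, XCON 2, stood far above all the rest with 298 reads, while XCON 3, with 8 reads, was the lowest of the 6, so the groups overlapped. Within XCON the highest library was 40.4 times the lowest. The log2 fold change of -2.99 ± 1.18 did not pass (edgeR, adjusted p = 0.147), and without XCON 2 it was -0.94 (adjusted p = 0.491).

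The hepatocyte keratins were far more abundant. Krt18 was at 375, 213 and 235 CPM in XCON and at 116, 142 and 167 CPM in XCKO, without overlap, and fell in XCKO (log2 fold change -0.95 ± 0.25, edgeR, adjusted p = 0.047). Leaving out any 1 of the 6 libraries ended that call, with adjusted p up to 0.1202. Krt8 was at 489, 260 and 363 CPM in XCON and at 281, 302 and 342 CPM in XCKO, with overlapping groups, and did not pass (log2 fold change -0.26 ± 0.24, adjusted p = 0.492).

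Epcam (ENSMUSG00000045394, chr17:87635979-87651106, plus strand) encodes an epithelial adhesion molecule of duct and progenitor cells that mature hepatocytes lack. It was at 3.16, 4.22 and 0.947 CPM in XCON 1 to 3 and at 0.769, 0.776 and 1.12 CPM in XCKO 1 to 3. XCON 1 and 2 were above all XCKO libraries, whereas XCON 3 fell inside the XCKO range. The log2 fold change was -1.63 ± 0.54 and did not pass (edgeR, adjusted p = 0.085). Without XCON 3 it passed, at -2.04 (adjusted p = 0.044). In the authors' deposited table Epcam had an adjusted p of 0.027.

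Sox9 (ENSMUSG00000000567, chr11:112782224-112787760, plus strand) encodes the transcription factor of the biliary branch. It was at 13.7, 7.66 and 25.3 CPM in XCON 1 to 3 and at 10.6, 4.58 and 3.37 CPM in XCKO 1 to 3. XCKO 1 lay above XCON 2, so the groups overlapped, and the highest Sox9 library was XCON 3, the library in which Krt19 and Epcam were at their lowest XCON values. The log2 fold change of -1.33 ± 0.55 did not pass (edgeR, adjusted p = 0.160). It was -0.77 without XCON 3 (adjusted p = 0.375) and -1.96 without XCKO 1 (adjusted p = 0.087). The authors' deposited table gave Sox9 a log2 fold change of -1.30 with an adjusted p of 0.032.

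Bicc1 (ENSMUSG00000014329, chr10:70922832-71159700, minus strand) encodes an RNA-binding protein whose loss in mice gives kidney cysts and dilated bile ducts. It was at 9.74, 3.37 and 4.02 CPM in XCON 1 to 3, which were 253, 92 and 119 reads. It was at 1.21, 1.44 and 1.25 CPM in XCKO 1 to 3, from 30, 37 and 29 reads. The groups did not overlap, the lowest XCON value being above the highest XCKO value, and the XCKO libraries lay close together, with a coefficient of variation of 9.09%, while XCON 1 stood above the other XCON libraries. Bicc1 fell by 2.13 on the log2 scale (SE 0.43, edgeR, adjusted p = 0.024). That call was lost without XCON 1 (log2 fold change -1.499, adjusted p = 0.055), without XCKO 1 (adjusted p = 0.063) or without XCKO 3 (adjusted p = 0.084), and with limma-voom (adjusted p = 0.052).

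Tspan8 (ENSMUSG00000034127, chr10:115816832-115849893, plus strand) encodes a tetraspanin, a membrane protein of secretory and duct epithelia. It was at 9.16, 3.996 and 1.72 CPM in XCON 1 to 3, from 238, 109 and 51 reads. It was at 0.648, 0.349 and 0.562 CPM in XCKO 1 to 3, from 16, 9 and 13 reads. The groups did not overlap, yet the XCON libraries spanned 5.31-fold among themselves. Tspan8 fell by 3.24 on the log2 scale (SE 0.63, edgeR, adjusted p = 0.024), the largest fitted difference among the members. The call was lost without XCKO 1 (adjusted p = 0.059), XCKO 2 (adjusted p = 0.062) or XCKO 3 (adjusted p = 0.084). It was also lost with limma-voom (adjusted p = 0.070) and with limma on log2(FPKM + 1) (-1.40, adjusted p = 0.059). Without XCON 1 the log2 fold change was -2.45 and passed (adjusted p = 0.047).

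Cftr (ENSMUSG00000041301, chr6:18170687-18322768, plus strand) encodes the chloride channel through which cholangiocytes drive bicarbonate and fluid into bile. It had 25, 5 and 2 reads in XCON 1 to 3 and 3, 1 and 1 reads in XCKO 1 to 3. XCON 1 held 25 of the 32 XCON reads, and XCON 3 lay within the XCKO range. It did not pass the low-count filter and was not tested. Summed over libraries, 32 reads against 5 gave an XCON to XCKO ratio of 5.68 (exact 95% interval 2.20 to 18.7, counting error only), and without XCON 1 the ratio was 1.81 (0.495 to 7.24).

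Pkhd1 (ENSMUSG00000043760, chr1:20057779-20618064, minus strand) encodes fibrocystin, a protein of the cholangiocyte cilium that is mutated in recessive polycystic kidney and liver disease. It was at 12.1, 10.4 and 14.4 CPM in XCON 1 to 3 and at 10.1, 10.2 and 8.08 CPM in XCKO 1 to 3. The groups did not overlap, but XCON 2 and XCKO 2 were almost level. The log2 fold change was -0.38 ± 0.19 and did not pass (edgeR, adjusted p = 0.209). Its coefficient of variation was 16.3% within XCON and 12.7% within XCKO, near the medians over all tested genes of 17.3% and 18.0%. Those of the other 7 members within XCON ran from 54.1% to 132%.

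**Figure D2:**
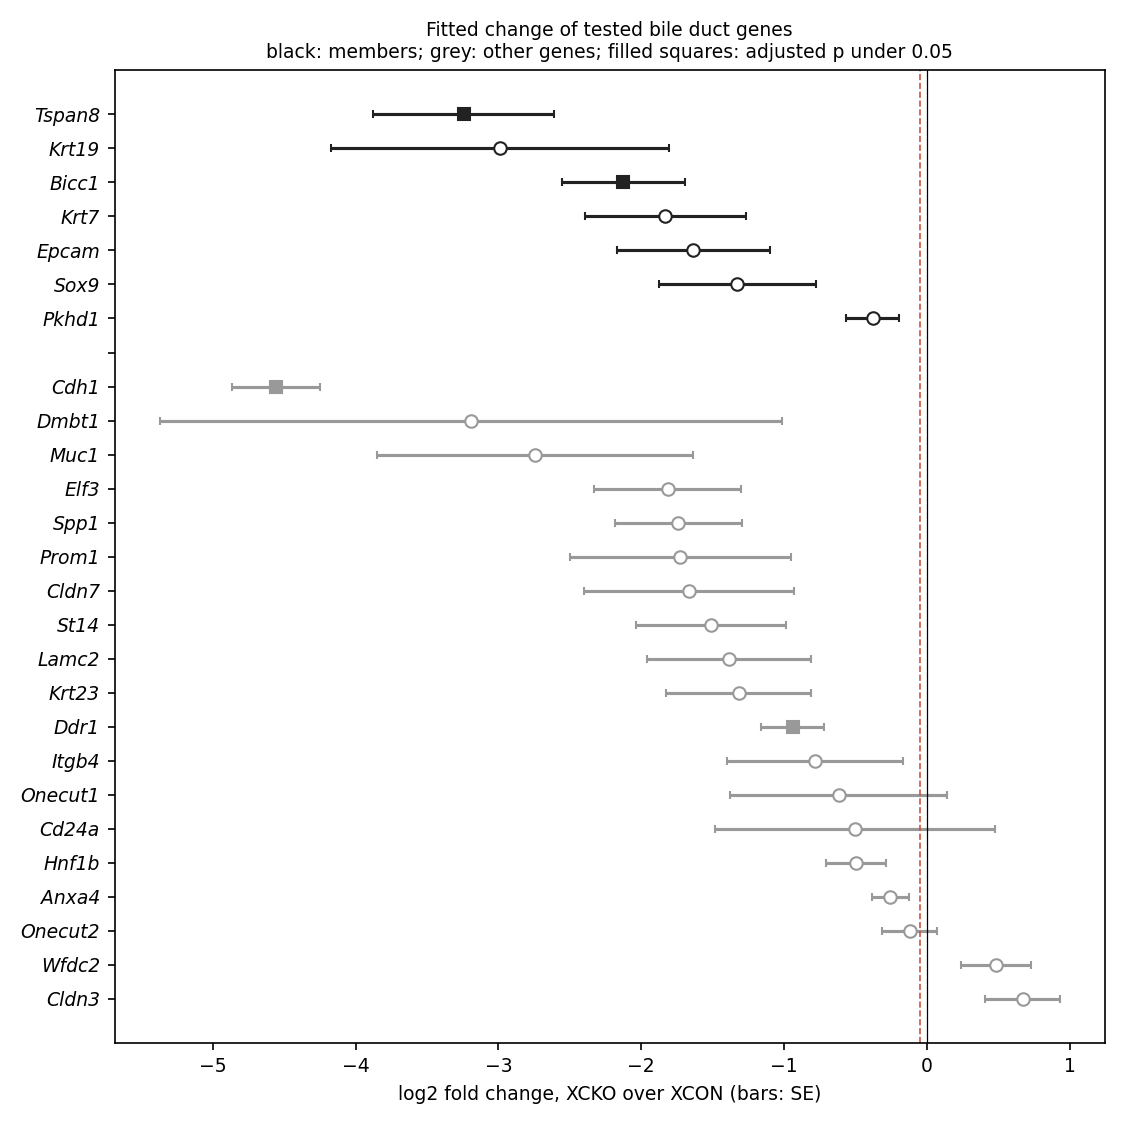
Fitted log2 fold change (XCKO over XCON) with SE for the 7 tested members, in black, and the 19 tested genes of a wider bile duct list, in grey; filled squares passed an adjusted p under 0.05, and the dashed line is the median of all tested genes, -0.05. The members run from -3.24 for Tspan8 to -0.38 for Pkhd1.

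The members did not share 1 order of libraries within XCON. Krt7, Krt19 and Epcam were highest in XCON 2, Bicc1, Tspan8 and Cftr in XCON 1, and Sox9 and Pkhd1 in XCON 3. XCON 3 was the lowest XCON library for 5 members, and XCON 2 was the lowest for Sox9, Bicc1 and Pkhd1. Summed over the 8 members, the level was 42.4 to 51.6 CPM in XCON and 15.1 to 24.6 CPM in XCKO, without overlap. Sox9 and Pkhd1 made up 49.9% and 42.7% of these reads in XCON 1 and XCON 2, 84.1% in XCON 3 and 75.9% to 84.5% in XCKO. By this share, though not by the summed level, XCON 3 lay with the XCKO libraries. Sox9 itself was at 25.3 CPM in XCON 3 and at 3.37 to 10.6 CPM in XCKO.

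Levels of different genes were compared only per length, as the deposited FPKM, which divide by gene length and library size. In XCON the order of the mean levels was Sox9 at 3.69 ± 2.20 FPKM (SD, n = 3), Tspan8 at 2.82 ± 2.16, Krt19 at 2.25 ± 2.97, Epcam at 1.31 ± 0.78, Pkhd1 at 0.84 ± 0.15, Bicc1 at 0.75 ± 0.45, Krt7 at 0.141 ± 0.074 and Cftr at 0.050 ± 0.061. Only the steps from Bicc1 to Krt7 and from Krt7 to Cftr were larger than the larger SD of the pair. In XCKO Sox9 led at 1.497 ± 0.94 FPKM, followed within its SD by Pkhd1 at 0.66 ± 0.07 and then by Epcam at 0.44 ± 0.11. Tspan8 at 0.306 ± 0.093 FPKM and Krt19 at 0.292 ± 0.088 FPKM did not differ beyond their SD, and Bicc1 at 0.175 ± 0.013, Krt7 at 0.040 ± 0.008 and Cftr at 0.0087 ± 0.0060 came last. For comparison of scale, the hepatocyte keratin Krt18 was at 186 ± 59 FPKM in XCON.

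A wider list of 26 other bile duct genes was read from the same fit. Of its 19 tested genes 2 fell and none rose, where 4.05% of all tested genes were called lower. The median log2 fold change was -1.32, and 17 were below 0, where 53.5% of all tested genes were. Unadjusted p (edgeR) was under 0.05 for 10 of the 19, 9 of them lower, against 4421 of all 14873 tested genes. DESeq2 called 5 of the 19 and 2653 of the 14873. Cdh1, which encodes the epithelial adhesion protein E-cadherin of hepatocytes as well as ducts, was at 43.0, 84.4 and 52.1 CPM in XCON and 2.06, 3.11 and 2.42 CPM in XCKO, and fell by 4.56 on the log2 scale (SE 0.31, edgeR, adjusted p = 0.0014). Ddr1, a collagen receptor kinase, fell by 0.94 (SE 0.22, adjusted p = 0.034), a call that no fit without 1 library kept (adjusted p up to 0.112). The 2 genes above 0, named after their values were seen, were Cldn3, a tight junction claudin, at 0.67 ± 0.26 (adjusted p = 0.127), and Wfdc2, a secreted protease inhibitor-like protein, at 0.48 ± 0.25 (adjusted p = 0.227). XCON 3 was the lowest XCON library for 19 of the 26 genes and XCON 1 the highest for 13. The summed level of the 26 genes was 571 to 959 CPM in XCON and 407 to 512 CPM in XCKO. Spp1, which encodes the secreted protein osteopontin, was a large part of it, at 563, 227 and 245 CPM in XCON and 76.7, 76.3 and 157 CPM in XCKO. Without Spp1, a choice made after seeing the data, the other 25 genes summed to 396, 705 and 326 CPM in XCON and 330, 362 and 355 CPM in XCKO, and XCON 3 lay below every XCKO library.

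**Figure D3:**
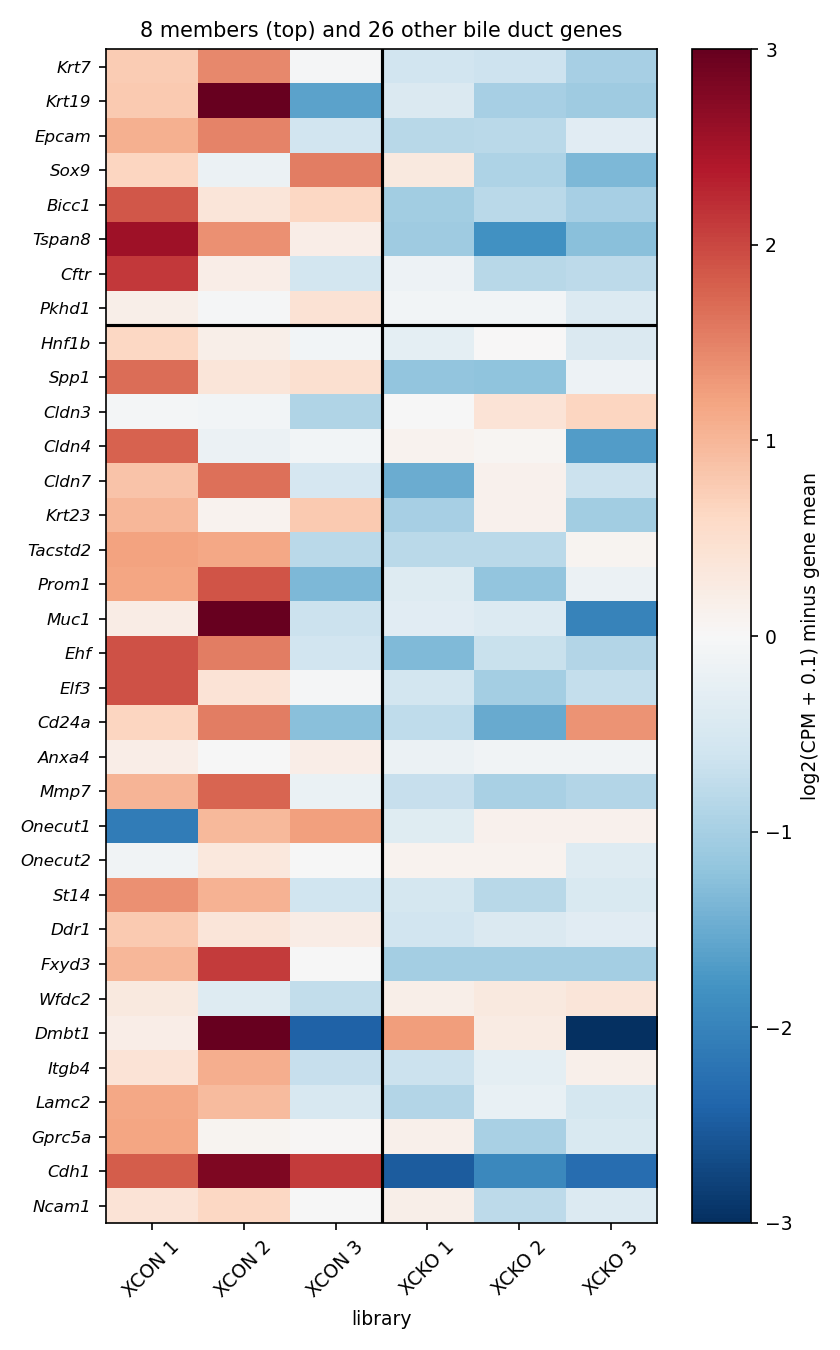
Level of the 8 members (above the line) and of 26 other bile duct genes in each library, as log2(CPM + 0.1) minus the gene's mean over the 6 libraries; red is above and blue below that mean, and the colours saturate at 3. XCON 1 and XCON 2 are red for most genes and XCON 3 is pale or blue for many, being the lowest XCON library for 19 of the 26.

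Of the genes for bile secretion other than Cftr none passed the test. Of 12 listed transporters, channels and receptors 10 were tested and 0 were called by edgeR. Unadjusted p (edgeR) was under 0.05 for 3 of the 10, against 4421 of all 14873 tested genes. DESeq2 called 1 of the 10, Slc12a2, and 2653 of the 14873. The smallest p was that of Slc12a2, the sodium, potassium and chloride cotransporter that loads chloride into secreting cells, at 12.4, 14.5 and 11.5 CPM in XCON and 17.1, 17.9 and 18.9 CPM in XCKO (log2 fold change 0.49 ± 0.15, edgeR, adjusted p = 0.070). The groups did not overlap, with XCKO higher. The median of the 10 was 0.20, and it was -0.07 when libraries were scaled by their totals alone.

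Genes of the cilium and of inherited kidney and liver cysts are the group that Bicc1 and Pkhd1 belong to by function. Of 22 tested genes 1 was called, lower in XCKO, where 4.05% of all tested genes were called lower. Glis3, a zinc finger factor of cystic kidney disease that reached the filter level in 3 XCON and 1 XCKO libraries, was at 4.04, 1.03 and 1.56 CPM in XCON and 0.162, 0.505 and 0.173 CPM in XCKO. It fell by 2.94 on the log2 scale (SE 0.68, edgeR, adjusted p = 0.034), and the call held in 2 of 6 fits that left out 1 library (adjusted p up to 0.109). The median of the 22 was -0.17, with 14 below 0 and 8 above, where 53.5% of all tested genes were below 0. With scaling by library totals alone 21 were below 0, and the median of all tested genes was then -0.31.

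Notch and YAP signalling, the pathways that act upstream of Sox9 in duct formation, showed 3 lower and 0 higher calls among 19 tested genes. The shares over all tested genes were 4.05% lower and 5.21% higher. The median of the 19 was -0.43. Cyr61, a secreted matrix protein and YAP target, was at 44.0, 40.2 and 49.6 CPM in XCON and 23.96, 19.0 and 17.3 CPM in XCKO. It fell by 1.15 (SE 0.17, edgeR, adjusted p = 0.010) and passed in each fit that left out 1 library. Ankrd1, a further YAP target, fell by 2.99 (SE 0.62, adjusted p = 0.025) from levels under 1 CPM. It passed the low-count filter through XCON only, reaching its level in 3 XCON and 0 XCKO libraries, so it had to differ to be tested, and its call was kept by no fit that left out 1 library (adjusted p up to 0.079). Heyl, a repressor switched on by Notch, fell by 1.96 (SE 0.49, adjusted p = 0.042), a call kept in 1 of those 6 fits (adjusted p up to 0.109). Yap1 itself had a log2 fold change of -0.07 ± 0.17 (adjusted p = 0.804) and Notch2 one of -0.19 ± 0.17 (adjusted p = 0.474), both named after their values were seen.

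Likeness was read by a fixed measure, the root mean square difference of centred log2 CPM over the 6 libraries. The search covered tested genes with a mean of at least 5 CPM, without predicted genes of Gm or Rik names. Bicc1 itself averaged 3.51 CPM. Krt7, Krt19, Epcam and Tspan8 were also under 5 CPM, so these members could not be named. Of the genes searched, the nearest to Pkhd1 were Zfp652 (0.028), Zfp790 (0.043) and Cars2 (0.055). Their log2 fold changes were -0.34, -0.33 and -0.34, and none passed. Of the genes searched, those nearest to Bicc1 were less close: Clcf1 at 0.355, Ikbke at 0.356 and Epb41l1 at 0.361. All of these were lower in XCKO, with log2 fold changes of -1.54, -2.20 and -1.999 (edgeR, adjusted p = 0.032, 0.0015 and 0.016). The values of 6 libraries in 2 groups set this likeness, and genes that share the group difference and the height of XCON 1 come out near.

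Markers of other cell types were read from the same fit, in which 4.05% of all tested genes were called lower and 5.21% higher. Called or not, 53.5% of all tested genes had a fitted difference below 0. Of 12 hepatocyte genes all 12 had a fitted difference above 0 and 1 rose, Hpd, an enzyme of tyrosine breakdown (1.199 ± 0.23, edgeR, adjusted p = 0.020), lost without XCON 2 or XCKO 3 (adjusted p up to 0.068). With scaling by totals Fgb turned below 0. Their summed level was 67155 to 90459 CPM in XCON and 94628 to 125840 CPM in XCKO, with no gene at 0. Of 11 macrophage genes all 11 were below 0 and Cd68, a lysosomal protein, fell (-1.34 ± 0.29, adjusted p = 0.033), a call kept in 3 of 6 fits without 1 library. Their summed level was 1164 to 2239 CPM in XCON and 407 to 1096 CPM in XCKO. Of 10 stellate cell genes all 10 were below 0 and Pdgfrb (-1.48 ± 0.27, adjusted p = 0.017), Lrat (-0.78 ± 0.16, adjusted p = 0.024) and Lum (-1.81 ± 0.43, adjusted p = 0.041) fell, with calls kept in 3, 1 and 1 of 6 such fits. Their summed level was 263 to 584 CPM in XCON and 111 to 273 CPM in XCKO, the groups overlapping. No macrophage or stellate gene was at 0 in any library. The part of these cell types in the lower member levels was not tested.

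Endothelial and mesothelial markers gave no calls. Of 8 endothelial genes none passed with edgeR or DESeq2. Unadjusted p (edgeR) was under 0.05 for 1 of them, Egfl7, a secreted vessel protein (0.74 ± 0.30, adjusted p = 0.143). It was under 0.05 for 4421 of all 14873 tested genes. The endothelial median was 0.15, or -0.12 with scaling by totals, and the summed level was 452 to 470 CPM in XCON and 357 to 745 CPM in XCKO. Of 6 mesothelial genes, which mark the liver capsule and share Krt19 with ducts, only Gpm6a was tested (-0.01 ± 0.44, adjusted p = 0.995). Their summed level was 2.40 to 4.31 CPM in XCON and 1.71 to 3.76 CPM in XCKO. Upk1b had no read in XCON 3, XCKO 1 and XCKO 3, and Wt1 none in XCKO 1, while no other listed mesothelial gene was at 0 in any library.

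**Figure D4:**
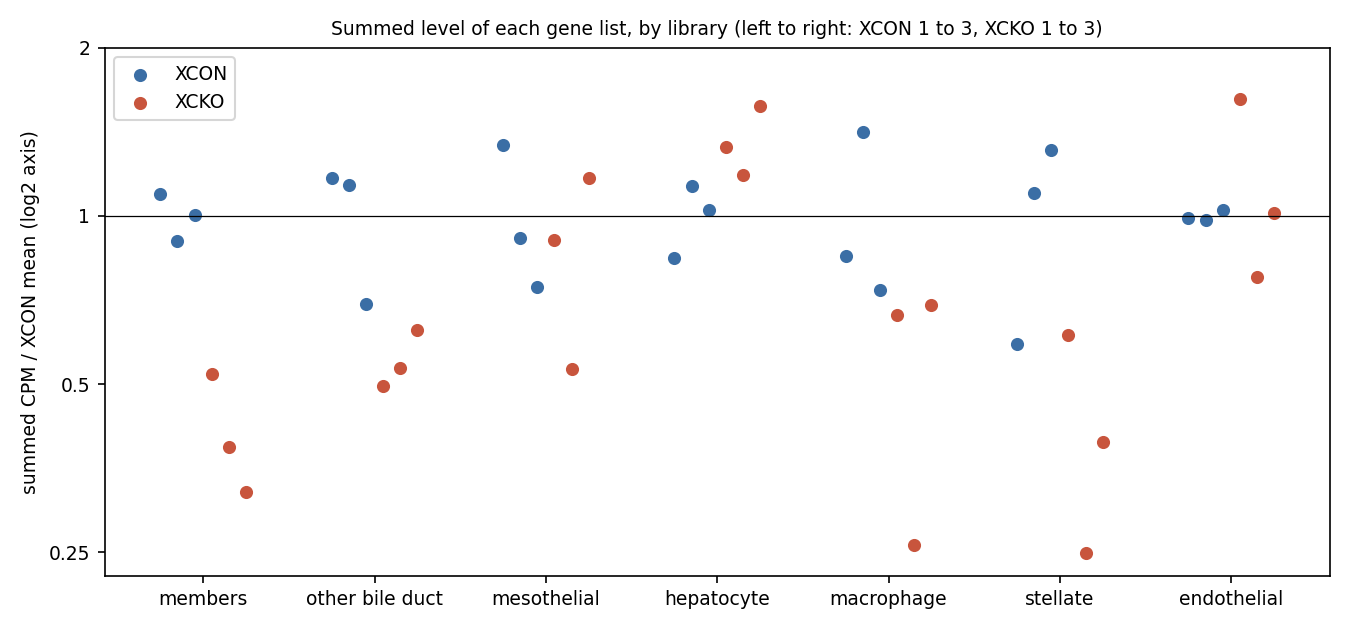
Summed CPM of each gene list in each library divided by the mean of the 3 XCON libraries, on a log2 axis, with XCON in blue and XCKO in red, libraries ordered left to right. The summed members lie at 0.320 to 0.522 of the XCON mean in XCKO, macrophage genes at 0.258 to 0.693 and stellate genes at 0.2495 to 0.613, while hepatocyte genes lie at 1.19 to 1.58.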

How the data were processed

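RNA of primary hepatocytes was extracted with Trizol and made into libraries with the NEBNext Ultra RNA kit from 1 ug of total RNA, per the labels. Bowtie 0.12.2, mm8 and mm10 appear in the submitters' processing notes with no role given; the sources used here name neither the read counter nor a strand setting. The authors deposited raw counts per Ensembl gene, FPKM per gene, a signal of group means of counts over size factors, and log2 fold changes with p-values and adjusted p-values, per the file headers; raw counts and FPKM were used for levels, and the deposited comparison only where named. Gene spans are those of the deposited table, which match GENCODE M21 for 7 of the 8 members; the Epcam end differs. Genes annotated over a member held at most 4 reads each, and without strand such reads could be assigned to either gene.

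Counts were filtered with filterByExpr (10 reads in the median library, reached in 3 libraries), scaled by trimmed means and tested with the robust edgeR 4.0.16 quasi-likelihood F test (limma 3.58.1, R 4.3.3), with Benjamini-Hochberg adjustment over all 14873 tested genes and a threshold of 0.05. The test was checked on simulated data that gave every gene the same spread. That check does not cover genes as uneven as most members. Alternatives were limma on log2 FPKM (pseudocount 1 or 0.1), DESeq2 1.42.0, limma-voom, other scalings and filters, a length correction, a replicate block and leaving out each library; their effects close the text. Intervals for counts are exact Poisson intervals at 95% and cover counting error only.

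The members and gene lists were chosen with earlier results of these data known. All 8 members are named; from other lists, up to 4 called genes per direction by smallest p, or the 1 with the smallest p where none passed, with Krt8, Krt18, Cdh1 and Xbp1 always given. Sequences are those of RefSeq, GRCm38.p6. Yap1, Notch2, Cldn3 and Wfdc2 were added after their values were seen.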

Additional observations from a re-analysis of the deposited data

How the results depend on the processing

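All members kept a negative difference in every fit in which they were tested, and no called gene of the lists changed direction in any fit. With scaling by library totals the medians of the bile secretion (0.197 to -0.0698) and endothelial lists (0.150 to -0.116) turned below 0. Among single genes, none of them called, Aqp1, Car2, Slc26a6 and Slc4a2 of the bile secretion list turned below 0. In the cyst list Alg9, Arl13b, Ganab, Nek8, Pkd2, Prkcsh and Tmem67 turned. Notch1, Tead4, Fgb, Kdr and Oit3 turned in the Notch and YAP, hepatocyte and endothelial lists. The number of members called, 2 in the reported fit, was 4 with scaling by library totals, 5 with DESeq2, 0 with limma-voom, 0 with a filter of 5 CPM (2 members tested), 0 with limma on log2(FPKM + 1) and 1 with log2(FPKM + 0.1) (2 tested), and 0 to 3 when 1 library was left out. Of the other bile duct genes, 2 of 19 tested were called in the reported fit, 6 of 19 with scaling by library totals and 5 of 19 with DESeq2. With no filter 8 of 26 were called, 1 of them higher. The count was 1 of 12 with either FPKM fit and 1 of 19 with the replicate block. When 1 library was left out it was 1 to 6 of 20 or 21 tested, 1 of them higher without XCON 1. The number of all genes called, 1378, was 2358 with scaling by library totals (13.8% of them higher, against 56.2%) and 2653 with DESeq2. It was 2160 with no filter (26604 tested) and 309 to 810 when 1 library was left out. With limma on log2(FPKM + 1) 72.7% and on log2(FPKM + 0.1) 74.5% of the calls were higher. Scaling by totals moved the median of all genes from -0.05 to -0.31 on the log2 scale. Same-numbered libraries of the groups correlated at 0.055, 0.077 and -0.168, and 1 of the 3 numbers matched its own best. These values do not show a pairing, and with 3 libraries per group they cannot exclude one. With the replicate block 322 genes and 0 members were called (Bicc1, adjusted p = 0.064; Tspan8, adjusted p = 0.051). A member under 1 CPM in a library rested there on at most 28 reads. The causes of these changes were not tested.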
